A study of Mus musculus with 18 samples.

Results

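The expression of 10 genes of pericellular proteolysis was followed through neuronal differentiation of control and HPRT-knockdown mouse embryonic stem cells. They are the plasminogen activators Plat and Plau, the secreted matrix metalloproteinases Mmp2 and Mmp3, the membrane-type metalloproteinases Mmp14 and Mmp15, and the tissue inhibitors of metalloproteinases Timp1, Timp2, Timp3 and Timp4. A probe was counted to a gene when the array annotation gave the gene as its symbol, and no measured value entered the choice. The 10 genes are represented by 18 probes, out of 30869 symbols and 45281 probes on the array. By the probes that carry a position, the array annotation places Plat, Mmp2 and Mmp15 on chromosome 8, Plau and Mmp14 on 14, Timp4 on 6, Mmp3 on 9, Timp3 on 10, Timp2 on 11 and Timp1 on X. At least 1 condition detected 15 of these 18 probes on all of its arrays, against 23172 of all probes.

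The cells were of the mouse line ESD3, derived from an embryo of strain 129s2/SvPas and kept on primary mouse embryo fibroblast feeder cells. Control cells carried a virally delivered short hairpin RNA (shRNA) against luciferase, and knockdown cells carried one against HPRT, the purine salvage enzyme whose loss underlies Lesch-Nyhan disease. Both were profiled as undifferentiated cells (ES stage), as spherical neural masses (SNM stage) and at day 14 of differentiation of those masses by a dopaminergic protocol (neuronal stage). Each of the 6 conditions was 1 pool of RNA from replicate cultures, hybridised to 3 arrays of the Illumina MouseWG-6 v2 type. SDs and p-values below therefore describe array error within a pool, not variation among cultures, and with 3 arrays the precision of a mean is limited.

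Pericellular proteolysis runs as a cascade. Tissue-type and urokinase-type plasminogen activators cleave plasminogen to plasmin, plasmin degrades fibrin and matrix proteins and can activate several metalloproteinase zymogens, and metalloproteinases cleave collagens, proteoglycans and cell surface proteins. The tissue inhibitors block active metalloproteinases, while TIMP2 together with the membrane-type enzyme MMP14 also takes part in activating pro-MMP2. In the nervous system tissue-type plasminogen activator and these enzymes act in neurite outgrowth, cell migration and synaptic remodelling.

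Signals are given as log2 of the background-corrected, quantile-normalized intensity, the unit of every level and difference below unless a fold is stated. A probe counted as detected on an array at a detection p-value under 0.05, and a gene is described by its brightest probe. A gene was called higher or lower when limma's Benjamini-Hochberg adjusted p was under 0.05 and the change was at least 1.5-fold. Hprt1 itself differed between the cell types by -4.09 in ES-stage cells, -1.76 in SNM-stage cells and -4.45 in neuronal-stage cells (knockdown minus control, limma adjusted p = 7.15e-15, 3.86e-11 and 9.64e-17). Arrays detected between 18827 and 22202 probes, and arrays of a condition correlated at r between 0.992 and 0.997 across probes. The neuron markers in neuronal-stage cells were incomplete. Of 6 neuron markers, Snap25 was on no control array, and Tubb3 and Snap25 were on no knockdown array. Of 6 dopaminergic markers, Slc6a3 and Pitx3 were on no control array and Th and Pitx3 on no knockdown array. The 7 markers of skeletal muscle were all detected in the control neuronal pool. In pooled cells, fewer cells of a type cannot be told apart from less RNA per cell.

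The stretch of 250 bases upstream of the annotated start is shown for 4 genes, because they represent the response patterns described below. Mmp15 and Timp4 had the most similar profiles of all pairs among the 10 genes, Mmp3 changed direction between stages, and Timp1 was lower after the ES stage. The sequences are RefSeq's for build GRCm38.p6, where 7 of the 10 genes matched by symbol, and run 5′ to 3′ on the gene's strand. The window of Mmp15 lies at chr8:95352046-95352295 (plus strand), that of Timp4 at chr6:115252206-115252455 (minus strand), that of Mmp3 at chr9:7445572-7445821 (plus strand) and that of Timp1 at chrX:20869916-20870165 (plus strand). Capitals mark matches on either strand to any of 3 motifs. The AP-1 element was searched as TGANTCA, letters that read the same on both strands. GC boxes were searched as GGGCGG, and the motif known as the TATA box was spelled TATAAA.
Mmp15: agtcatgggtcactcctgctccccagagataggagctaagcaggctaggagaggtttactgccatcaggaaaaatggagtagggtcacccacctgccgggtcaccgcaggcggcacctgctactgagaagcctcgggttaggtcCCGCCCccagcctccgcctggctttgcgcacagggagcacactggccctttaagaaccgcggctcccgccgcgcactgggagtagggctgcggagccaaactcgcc
Timp4: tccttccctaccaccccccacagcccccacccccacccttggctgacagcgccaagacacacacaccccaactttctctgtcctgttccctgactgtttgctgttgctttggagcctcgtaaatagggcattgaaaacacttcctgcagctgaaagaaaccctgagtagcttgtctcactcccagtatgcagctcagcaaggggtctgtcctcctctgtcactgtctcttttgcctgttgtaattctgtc
Mmp3: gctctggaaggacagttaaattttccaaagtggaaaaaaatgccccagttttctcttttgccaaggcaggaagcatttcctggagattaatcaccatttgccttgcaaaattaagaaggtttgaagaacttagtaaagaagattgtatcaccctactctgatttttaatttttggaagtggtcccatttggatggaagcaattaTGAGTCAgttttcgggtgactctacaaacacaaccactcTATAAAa
Timp1: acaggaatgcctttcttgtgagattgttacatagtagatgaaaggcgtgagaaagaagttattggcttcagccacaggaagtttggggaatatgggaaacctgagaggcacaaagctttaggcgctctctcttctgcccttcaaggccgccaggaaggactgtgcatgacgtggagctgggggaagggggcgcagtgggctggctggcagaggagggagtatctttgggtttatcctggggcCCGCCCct
The Mmp3 window held an AP-1 match that began 46 bases before the annotated start and a TATA match that began 7 bases before it. No other of the 7 windows held either. Among 32851 windows of this length, 6.7% held the AP-1 letters and 12.4% the TATA letters. Mmp15 and Timp1 each held 1 GC box, as did Timp2 and Timp3, Mmp14 held 2, and Mmp3 and Timp4 held none, against 32.7% of all windows with at least 1. The GC content was 63.6% for Mmp15, 53.6% for Timp4, 37.6% for Mmp3 and 54.4% for Timp1, beside a median of 52.4% over all windows.

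Among ES-stage cells, Plat and Timp2 were lower in knockdown than in control cells, 2 of 7 genes tested, where 1.17% of 18411 tested probes were lower. By limma 0 of the 7 were higher, 0 also at an unadjusted p under 0.05 and by the t-test of the study's methods, while 0.516% of tested probes were higher. In SNM-stage cells all 10 were tested. Plat, Timp2, Timp3 and Timp4 were higher and Mmp3 and Timp1 lower, against 11% of 20765 tested probes higher and 8.90% lower. In neuronal-stage cells Plat, Mmp3, Mmp15, Timp3 and Timp4 were higher and Plau and Mmp2 lower, against 13.9% of 20893 probes higher and 13.5% lower. The median difference of the genes tested was -0.46 in ES-stage cells, 0.33 in SNM-stage cells and 0.54 in neuronal-stage cells, beside 0.01, -0.04 and 0.01 over all tested probes.

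**Figure D1:**
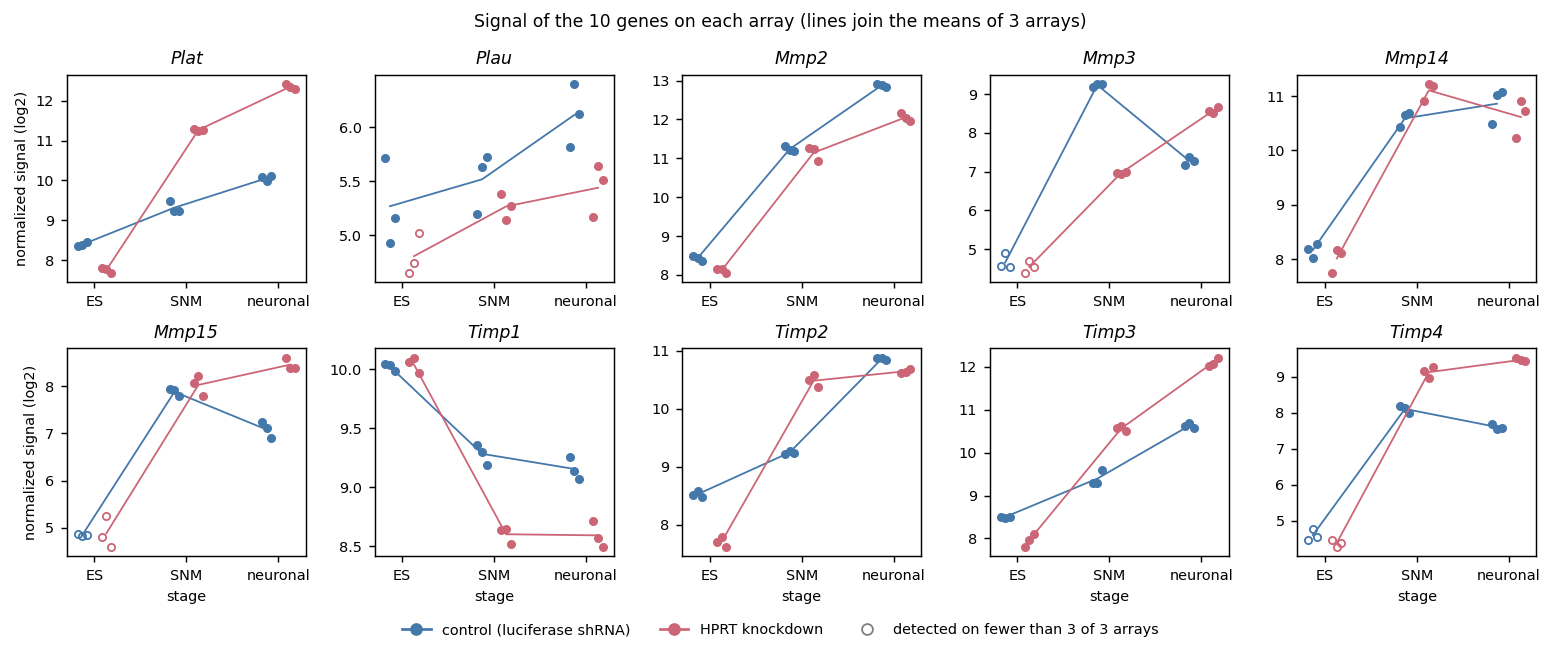
Normalized signal (log2, y axis, scaled separately for each gene) of the brightest probe of each of the 10 genes at the ES, SNM and neuronal stages (x axis), in control (blue) and HPRT knockdown cells (red). Each point is 1 array, lines join the means of 3 arrays, and open points mark conditions in which fewer than 3 arrays detected the probe. Plat rose to 12.35 in knockdown and 10.05 in control neuronal cells, and the Mmp3 lines cross between the SNM and neuronal stages.

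Most of the genes were higher after the ES stage in both cell types, each stage being 1 RNA pool per cell type. From the ES to the SNM stage 8 genes rose and Timp1 fell in control cells, against 23.7% of 20703 tested probes higher and 25.4% lower. The same 8 rose and Timp1 fell in knockdown cells, against 26.4% of 21467 probes higher and 30.9% lower. The 8 were Plat, Mmp2, Mmp3, Mmp14, Mmp15, Timp2, Timp3 and Timp4. With the mean over a gene's probes, the rises of Plat (0.30) and Timp3 (0.37) in control cells fell under 1.5-fold. For Plat this mean takes in probes at background. The 10 genes had a median difference of 1.67 in control and 2.90 in knockdown cells, beside medians over all tested probes of -0.08 and -0.11. From the SNM to the neuronal stage, Plat, Plau, Mmp2, Timp2 and Timp3 rose and Mmp3 and Mmp15 fell in control cells (14.3% of 20697 probes higher, 15.1% lower). In knockdown cells Plat, Mmp2, Mmp3 and Timp3 rose and 0 fell by limma or by the methods' t-test, with 1 gene lower at an unadjusted p under 0.05 (13.8% of 21125 probes higher, 14.8% lower).

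The activators parted between the cell types. Plat, which encodes tissue-type plasminogen activator, had values on the 3 control arrays of 8.35, 8.38 and 8.44 in ES-stage cells, 9.48, 9.23 and 9.24 in SNM-stage cells, and 10.08, 9.98 and 10.10 in neuronal-stage cells. On the knockdown arrays the values were 7.80, 7.77 and 7.68, then 11.28, 11.25 and 11.27, then 12.42, 12.34 and 12.30. No 2 of the 6 conditions overlapped, and knockdown cells held both the lowest condition (ES) and the highest (neuronal). Plat was 1.56-fold lower in knockdown cells at the ES stage (difference -0.64, SE 0.07, limma adjusted p = 2.58e-05), but stayed under 1.5-fold without array 3 of each condition (-0.58) and under 4 other settings of normalization and offset (-0.53 to -0.58). It was 3.86-fold higher in SNM-stage cells (1.95, SE 0.07, adjusted p = 1.97e-12) and 4.92-fold higher in neuronal-stage cells (2.30, SE 0.07, adjusted p = 4.73e-14). The rise from ES to SNM was 1.90-fold in control and 11.4-fold in knockdown cells.

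These Plat values rest on 1 of 3 probes. The bright probe carries the symbol Plat in the annotation but no RefSeq accession. The probe that does carry one was detected on none of the 18 arrays, with condition means between 4.36 and 4.49, and the remaining one was detected on 1 knockdown array of the neuronal stage. Probe sequences were not used here, and which transcript form the bright probe reads was not tested. With the mean over all 3 probes the ES difference was -0.16 (limma adjusted p = 0.076736), and 3 of the rises between stages fell under 1.5-fold: SNM over ES in control cells (0.30), and neuronal over SNM in control (0.28) and knockdown cells (0.36). Since the other probes lay at background, this mean shrinks any change of the bright probe by construction. Scaling to the 75th percentile also left the control rise after the SNM stage under 1.5-fold (0.58).

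Plau, which encodes urokinase-type plasminogen activator, was close to background. The control arrays gave 5.71, 4.93 and 5.16 in ES-stage cells, 5.20, 5.63 and 5.72 in SNM-stage cells and 5.82, 6.40 and 6.12 in neuronal-stage cells. The knockdown arrays gave 4.65, 4.74 and 5.02 (detected on 1 of 3), 5.38, 5.14 and 5.27, and 5.17, 5.64 and 5.51. The cell types overlapped at the ES and SNM stages and were apart only in neuronal-stage cells. There Plau was 1.59-fold lower in knockdown cells (-0.67, SE 0.20, limma adjusted p = 0.008192), and the 95% interval of the difference in SNM-stage cells was -0.67 to 0.17. The rise of control cells after the SNM stage (0.60, SE 0.20, adjusted p = 0.016145) was lost when array 1, 2 or 3 of each condition was left out in turn, at values between 0.51 and 0.69, while its change from ES to SNM (0.25) was called without array 1 (0.63). The neuronal call was lost without array 2 (adjusted p = 0.054799) and without array 3 (adjusted p = 0.061763) of each condition, and the difference was -0.36 to -0.42 under 3 other settings of normalization and offset.

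Mmp2, the gelatinase that cleaves basement membrane collagen, gave 8.49, 8.44 and 8.36 on control arrays in ES-stage cells, 11.32, 11.21 and 11.18 in SNM-stage cells, and 12.91, 12.89 and 12.83 in neuronal-stage cells. The knockdown arrays gave 8.15, 8.14 and 8.06, then 11.28, 11.23 and 10.93, then 12.17, 12.04 and 11.95. The cell types overlapped only in SNM-stage cells (difference -0.09, 95% interval -0.27 to 0.08), and the control neuronal pool was the highest condition. The difference of -0.32 between ES-stage cells (adjusted p = 0.022588 by limma) stayed under 1.5-fold. From ES to SNM Mmp2 rose 6.99-fold in control and 8.16-fold in knockdown cells. In neuronal-stage cells it was 1.77-fold lower in knockdown cells (-0.82, SE 0.08, limma adjusted p = 3.21e-07).

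Mmp3, which encodes stromelysin 1, an enzyme of broad specificity that also activates other metalloproteinases, was at background in ES cells, detected on 1 of 3 control arrays and 0 of 3 knockdown arrays. In SNM-stage cells the control arrays gave 9.20, 9.25 and 9.26 and the knockdown arrays 6.97, 6.94 and 7.002. In neuronal-stage cells the control arrays gave 7.17, 7.39 and 7.28 and the knockdown arrays 8.55, 8.50 and 8.67. Control cells were higher at the SNM stage and knockdown cells at the neuronal stage, with no overlap at either. Mmp3 was 4.82-fold lower in knockdown cells at the SNM stage (-2.27, SE 0.09, limma adjusted p = 1.84e-11) and 2.46-fold higher in neuronal-stage cells (1.30, SE 0.09, adjusted p = 5.64e-09). The change of the knockdown effect between these stages was 3.56 (SE 0.13, adjusted p = 2.22e-12). All 3 Mmp3 probes gave this turn, with -2.43 and -2.12 in SNM-stage cells and 1.10 and 0.97 in neuronal-stage cells for the dimmer probes. Control cells fell 3.89-fold from SNM to neuronal while knockdown cells rose 3.04-fold, and the rise of knockdown cells from ES to SNM was at least 4.10-fold, counted from the lowest detected signal on the ES arrays.

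**Figure D2:**
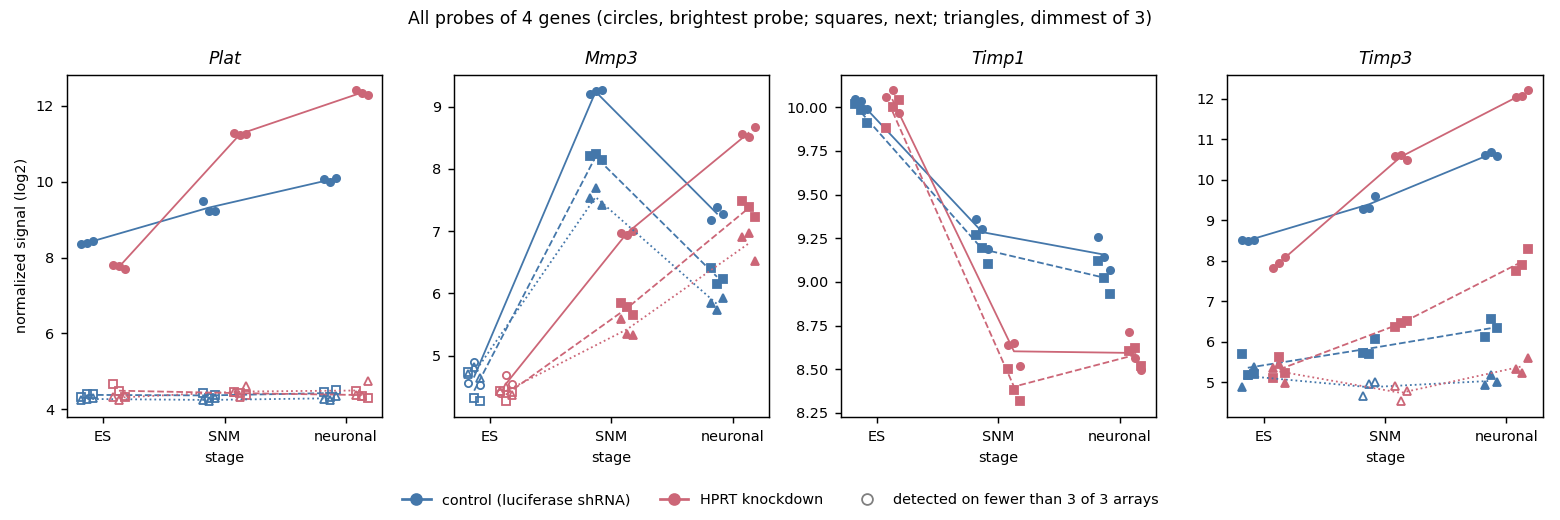
Normalized signal (log2, y axis) of every probe of Plat, Mmp3, Timp1 and Timp3 by stage (x axis), in control (blue) and knockdown cells (red). Points are single arrays and lines join the means of 3 arrays, with circles for the brightest probe, squares for the next and triangles for the dimmest of 3. All 3 Mmp3 probes cross between the SNM and neuronal stages, while the Plat probes other than the brightest stay between 4.24 and 4.49 in every condition mean.

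The membrane-type enzymes rose together on leaving the ES stage and separated later. Mmp14 encodes the membrane-bound collagenase that activates pro-MMP2. Its brighter probe gave 8.19, 8.03 and 8.29 on control and 7.75, 8.17 and 8.11 on knockdown arrays in ES-stage cells, and 10.44, 10.65 and 10.68 against 10.91, 11.22 and 11.18 in SNM-stage cells. In neuronal-stage cells the values were 10.48, 11.02 and 11.07 in control and 10.22, 10.91 and 10.72 in knockdown cells. The cell types overlapped at the ES and neuronal stages. In SNM-stage cells they did not, but the difference of 0.51 (SE 0.18, limma adjusted p = 0.023090) stayed under 1.5-fold. The rise from ES to SNM was 5.36-fold in control and 8.53-fold in knockdown cells. The other Mmp14 probe was detected on none of the 18 arrays.

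Mmp15, another membrane-type enzyme, was detected on 0 control and 1 knockdown array of the ES stage. In SNM-stage cells it gave 7.94, 7.92 and 7.78 in control and 8.06, 8.22 and 7.79 in knockdown cells, which overlapped (difference 0.15, 95% interval -0.15 to 0.44). In neuronal-stage cells the control arrays gave 7.23, 7.11 and 6.90 and the knockdown arrays 8.60, 8.39 and 8.38. Control cells had fallen 1.74-fold from the SNM stage. Mmp15 was then 2.59-fold higher in knockdown cells (1.38, SE 0.14, limma adjusted p = 3.26e-07). The rise of control cells from ES to SNM was at least 8.06-fold.

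Of the inhibitors, Timp3 and Timp4 were called higher in knockdown cells at both later stages and Timp2 at the SNM stage alone, while Timp1 was called lower at the SNM stage. Timp1, a secreted inhibitor known for its response to cytokines and growth factors, was the only one of the 10 genes called lower in SNM-stage than in ES-stage cells. Control arrays gave 10.04, 10.04 and 9.99 in ES-stage cells, 9.36, 9.30 and 9.19 in SNM-stage cells and 9.26, 9.14 and 9.07 in neuronal-stage cells. Knockdown arrays gave 10.06, 10.10 and 9.97, then 8.64, 8.65 and 8.52, then 8.71, 8.57 and 8.50. The cell types overlapped at the ES stage and were apart afterwards, and within each cell type the SNM and neuronal arrays overlapped. Timp1 was 1.60-fold lower in knockdown cells at the SNM stage (-0.68, SE 0.07, limma adjusted p = 7.06e-07), and its neuronal difference of -0.56 (adjusted p = 3.66e-06) stayed under 1.5-fold. Its second probe gave -0.79 and -0.44.

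Timp2, the inhibitor that partners MMP14, gave 8.52, 8.59 and 8.47 on control arrays in ES-stage cells, 9.23, 9.28 and 9.24 in SNM-stage cells, and 10.87, 10.87 and 10.84 in neuronal-stage cells. Knockdown arrays gave 7.71, 7.79 and 7.63, then 10.49, 10.58 and 10.37, then 10.61, 10.64 and 10.69. The SNM level was 6.83 times the ES level in knockdown cells and the neuronal level 1.12 times the SNM level (under the 1.5-fold threshold), against ratios of 1.65 and 3.06 in control cells. Timp2 was 1.76-fold lower in knockdown cells at the ES stage (-0.82, SE 0.06, limma adjusted p = 4.92e-07) and 2.35-fold higher in SNM-stage cells (1.23, SE 0.06, adjusted p = 1.14e-10). In neuronal-stage cells the arrays did not overlap, but the difference was -0.21 (95% interval -0.34 to -0.09).

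Timp3, which stays bound to the matrix, gave 8.51, 8.48 and 8.51 on control arrays in ES-stage cells, 9.29, 9.29 and 9.61 in SNM-stage cells, and 10.61, 10.69 and 10.58 in neuronal-stage cells. Knockdown arrays gave 7.81, 7.95 and 8.10, then 10.58, 10.61 and 10.498, then 12.03, 12.08 and 12.21. Knockdown cells at the SNM stage overlapped control cells at the neuronal stage. Timp3 was 2.25-fold higher in knockdown cells at the SNM stage (1.17, SE 0.09, limma adjusted p = 1.91e-08) and 2.78-fold higher in neuronal-stage cells (1.48, SE 0.09, adjusted p = 4.64e-10). In ES-stage cells its difference of -0.54 (adjusted p = 9.53e-04) stayed under 1.5-fold, and passed it without array 3 of each condition (-0.62). The second probe gave 0.62 and 1.64 at the later stages, and the dimmest, near background, gave -0.14, untested with 2 of 3 arrays detected in each cell type, and 0.36 (adjusted p = 0.051439). The mean over the 3 probes differed by 0.55 in SNM-stage cells, under 1.5-fold. In control cells that mean rose by 0.37 from ES to SNM, also under 1.5-fold. Over this step the second probe changed by 0.48 in control and 1.13 in knockdown cells, and the dimmest by -0.27 and -0.53. In ES-stage cells the cell types differed by -0.04 on the second probe and 0.12 on the dimmest.

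Timp4, the inhibitor with the most restricted tissue distribution, was detected on 0 of the 6 ES arrays. In SNM-stage cells it gave 8.18, 8.13 and 7.996 in control and 9.16, 8.95 and 9.25 in knockdown cells, and in neuronal-stage cells 7.69, 7.54 and 7.57 against 9.52, 9.45 and 9.42. No conditions overlapped after the ES stage. It was 2.03-fold higher in knockdown cells at the SNM stage (1.02, SE 0.09, limma adjusted p = 1.17e-07) and 3.64-fold higher in neuronal-stage cells (1.86, SE 0.09, adjusted p = 3.15e-11). The rise from ES to SNM was at least 9.40-fold in control and at least 18.2-fold in knockdown cells.

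**Figure D3:**
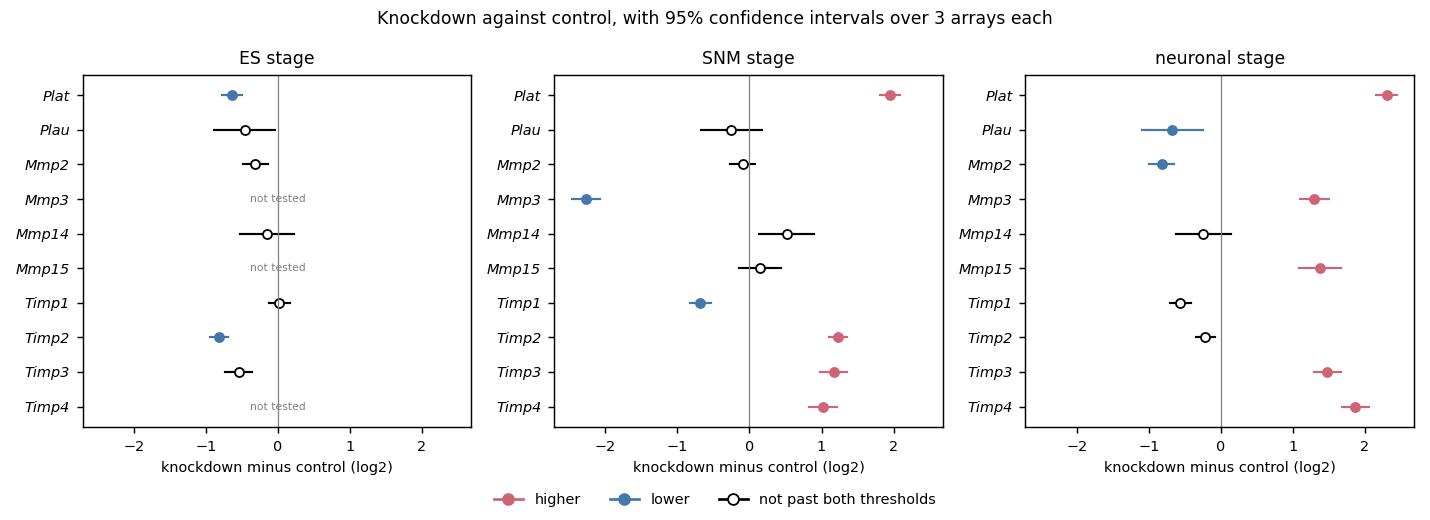
Difference between knockdown and control cells (log2, x axis) for each of the 10 genes (y axis) at the ES, SNM and neuronal stages, from limma over 3 arrays per condition, with bars for 95% confidence intervals. Filled points passed both thresholds (red higher, blue lower), open points did not, and genes detected on too few ES arrays are marked as not tested. Mmp3 lies at -2.27 in SNM-stage cells and at 1.30 in neuronal-stage cells, and Plat lies at -0.64 in ES-stage cells and 2.30 in neuronal-stage cells.

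The change of the knockdown effect from one stage to the next was tested directly. From the ES to the SNM stage it was higher for Plat (2.59, SE 0.09), Timp2 (2.05, SE 0.08), Timp3 (1.71, SE 0.12), Timp4 (1.24, SE 0.13) and Mmp14 (0.67, SE 0.25), where 11.7% of 22125 tested probes were higher. It was lower for Mmp3 (-2.15, SE 0.13) and Timp1 (-0.70, SE 0.10), where 9.61% were lower. The limma adjusted p was 0.043681 for Mmp14, 4.16e-05 for Timp1 and at most 1.40e-06 for the others. Timp4 was detected on 0 and Mmp3 on 1 of the 6 ES arrays, so that their effect in ES-stage cells was not measured and their values rest on the SNM stage. From the SNM to the neuronal stage the effect was higher for Mmp3, Mmp15 (1.23, SE 0.20) and Timp4 (0.84, SE 0.13), with 13.7% of 22160 tested probes higher. It was lower for Timp2 (-1.45, SE 0.08), Mmp14 (-0.76, SE 0.25) and Mmp2 (-0.73, SE 0.12), with 14.8% lower. Here the adjusted p was 0.020766 for Mmp14 and at most 8.32e-05 for the others. The first Mmp14 change lost its call when any 1 of the 3 array numbers was left out (0.55 to 0.79), and the second without array 2 (-0.80) or array 3 (-0.71). The first was also lost with 75th percentile scaling (0.46), with no scaling between arrays (0.48), with no detection filter (adjusted p = 0.084810 by limma) and with the mean over probes (0.30). The second was lost with that scaling (-0.53), with no scaling (-0.62, adjusted p = 0.120193 by limma) and with the mean over probes (-0.34). The other Mmp14 probe was detected on no array, so the mean over probes shrinks any change of the brighter one by construction. Both changes use the SNM arrays. For Plat the second change was 0.35 (adjusted p = 0.005590), under 1.5-fold. For Timp3 it was 0.31 on the brightest probe (limma adjusted p = 0.052409), not called. Its second probe gave 1.03 (adjusted p = 0.002878) and the mean over its probes 0.61 (adjusted p = 0.002492), both past the thresholds. The dimmest Timp3 probe gave 0.50 (adjusted p = 0.066328). Plau had intervals of -0.38 to 0.81 and -1.02 to 0.17.

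Markers of other cell types moved with several of these differences, and their part in them was not tested. In neuronal-stage cells, where Mmp2 and Plau were lower in knockdown cells, all 11 fibroblast and mesenchyme markers were detected in both cell types, with a summed linear signal of 22523 to 25813 on control and 11927 to 15259.8 on knockdown arrays. The 7 skeletal muscle markers summed to 46418 to 46899.8 on control and 224 to 315 on knockdown arrays, where Myog, Myod1 and Ckm were undetected. Beside the higher Plat, Mmp3, Mmp15, Timp3 and Timp4 of neuronal knockdown cells, the 8 oligodendrocyte markers were all detected at 38803 to 44514, against 713 to 825 in control cells, in which 5 of 8 were detected and Mog was on no array. The 6 astrocyte markers, all detected, summed to 9946 to 10883 against 5980.2 to 6769.9. The neuron markers went the other way, at 1291 to 1443 on knockdown arrays (4 of 6 detected) against 6395 to 6819.6 on control arrays (5 of 6), as did the pluripotency markers, at 3747 to 4105 against 9151 to 9412 (6 of 7 in both). The dopaminergic sum was higher in knockdown cells, at 2433 to 2565 against 812 to 913, with 3 of 6 detected in both. These were Ddc, Nr4a2 and Slc18a2, while Th was on no knockdown array, Slc6a3 on no control array and Pitx3 on no array of either. Smaller gaps without overlap were seen for neural progenitor markers (5839.6 to 6539 in knockdown, 4949.5 to 5423 in control, 4 of 6 in both, Msi1 on none), endoderm markers (2497 to 2662 against 2203 to 2267, 6 of 8 in both) and endothelial markers (203 to 222 against 281 to 292, 2 of 6 in both).

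In SNM-stage cells the lists did not all move the same way as in neuronal-stage cells. Oligodendrocyte markers were lower in knockdown (1701 to 2072, 5 of 8 detected on every array, Mog on none) than in control cells (5701 to 6644, 7 of 8), while Plat, Timp3 and Timp4 were higher at both stages and Mmp3 was lower at the SNM stage and higher at the neuronal stage, the directions of this list. Astrocyte markers were higher in knockdown cells at this stage too (10102 to 10285 against 5365 to 6236, 6 of 6 in both). Fibroblast markers summed to 7757 to 9453 against 6977 to 7689, with 11 of 11 detected in both. Endothelial markers summed to 312 to 350 in knockdown and 249 to 277 in control cells (4 and 2 of 6 detected). Their direction at the other stages was the reverse. Beside the higher Plat, Timp2, Timp3 and Timp4, neural progenitor markers summed to 9609.8 to 10778 in knockdown and 4863 to 5227 in control cells (4 of 6 in both, Msi1 on none) and muscle markers to 1855 to 2007 against 1104 to 1117 (6 and 4 of 7, Ckm on none). Pluripotency markers were lower in knockdown cells (6801 to 7206 against 9563 to 10425, 6 of 7 in both), as were dopaminergic ones (383 to 437 against 516 to 533, 3 of 6 in both), and the neuron sums overlapped. In ES-stage cells, where Plat and Timp2 were lower in knockdown cells, the 8 parietal and visceral endoderm markers summed to 4663 to 4868 against 5912 to 6120.1 in control cells, with 6 detected on every array of both and Afp on none. The 11 fibroblast markers summed to 445 to 471 against 514 to 571 there, with 4 and 5 detected and Col1a1, Lum, Pdgfrb and Postn on no array of either. Endothelial (646 to 747 against 850.4 to 883) and muscle sums (622 to 679 against 723 to 744) were lower in knockdown cells too, with 4 of 6 and 4 of 7 detected in both.

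Of 16 further genes of the plasminogen system 7 were tested in ES-stage cells and 0 were called by limma, with 0 higher and 2 lower at an unadjusted p under 0.05. In SNM-stage cells 3 of 7 were higher and 0 lower, with 4 and 0 at an unadjusted p under 0.05. Vtn, the matrix protein vitronectin that stabilises the inhibitor PAI-1, went from 6.56 in control to 9.92 in knockdown cells (difference 3.36, SE 0.12, limma adjusted p = 4.32e-12). Anxa2, which with S100a10 forms a cell surface receptor for plasminogen and its activator, went from 12.12 to 12.998 (0.88, SE 0.06, adjusted p = 7.25e-09), and S100a10 was the other gene called. In neuronal-stage cells Vtn was still higher (2.62, SE 0.12, adjusted p = 2.49e-11), and Plaur, the urokinase receptor, was called higher too. Plaur was detected on no control array, and its bound of at least 1.42-fold lay under the 1.5-fold threshold. Serpini1, the neuronal inhibitor of tissue-type plasminogen activator called neuroserpin, went from 8.02 to 5.34 (-2.69, SE 0.14, adjusted p = 6.59e-11), the only one of 8 tested that was called lower. The neuron marker sum of 1291 to 1443 on knockdown and 6395 to 6819.6 on control arrays moved in the same direction, and its part in this fall was not tested. The medians of this list were -0.04, 0.50 and 0.22 at the 3 stages, to be read, as for the lists that follow, beside the medians and shares of all tested probes given above.

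Of 19 other matrix metalloproteinases 8, 9 and 10 were tested at the 3 stages. By limma 0 were called in ES-stage cells (1 higher and 1 lower at an unadjusted p under 0.05) and 0 in SNM-stage cells (1 and 4). In neuronal-stage cells Mmp17, Mmp13 and Mmp16 were higher. The membrane-anchored Mmp17 differed by 0.81 (SE 0.06, adjusted p = 1.00e-08) and the collagenase Mmp13 by 0.79 (SE 0.09, adjusted p = 1.52e-06) by limma. The medians were 9.25e-04, -0.07 and 0.23.

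The 18 ADAMTS proteases on the array are secreted enzymes that cleave proteoglycans and procollagens. Of 13 tested in neuronal-stage cells 6 were lower and 1 higher, with a median of -0.53, or -0.43 with undetected genes set at their bound. Adamts12 went from 10.75 in control to 8.02 in knockdown cells (-2.73, SE 0.08, limma adjusted p = 1.21e-13) and Adamts2, the procollagen N-proteinase, from 9.26 to 8.25 (-1.01, SE 0.13, adjusted p = 7.76e-06). Adamts4, an aggrecanase, went the other way from 7.47 to 10.05 (2.59, SE 0.15, adjusted p = 5.25e-10). The fibroblast, muscle, neuron, pluripotency and endothelial marker sums above were lower in knockdown cells, as were Adamts12 and Adamts2. The oligodendrocyte, astrocyte, dopaminergic, neural progenitor and endoderm sums were higher, as was Adamts4. The part of any of these cell types was not tested. In SNM-stage cells 1 of 11 was higher (Adamts9, 0.60) and 1 lower (Adamts19, -1.29), with a list median of -0.15, and in ES-stage cells 0 of 4 were called by limma (0 higher and 1 lower at an unadjusted p under 0.05, median -0.23).

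Of 10 other regulators of metalloproteinases 9 were tested in neuronal-stage cells, with 5 lower and 1 higher and a median of -0.77. The testican genes Spock3 (-1.85, SE 0.09, limma adjusted p = 2.67e-11) and Spock1 (-1.54, SE 0.16, adjusted p = 3.82e-07), which encode extracellular proteoglycans of brain, had the lowest values. Bsg, basigin, known as an inducer of metalloproteinases, was the gene called higher and was detected on no control array. Its bound of at least 1.42-fold lay under the 1.5-fold threshold. In SNM-stage cells 1 of 8 was called, Furin, the proprotein convertase that processes membrane-type metalloproteinases (0.74, SE 0.06, adjusted p = 1.18e-07), with 0 lower against 2 at an unadjusted p under 0.05 and a list median of 0.23, or 0.20 with undetected genes at their bound. In ES-stage cells 0 of 4 were called by limma (0 higher and 1 lower at an unadjusted p under 0.05, median -0.06).

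**Figure D4:**
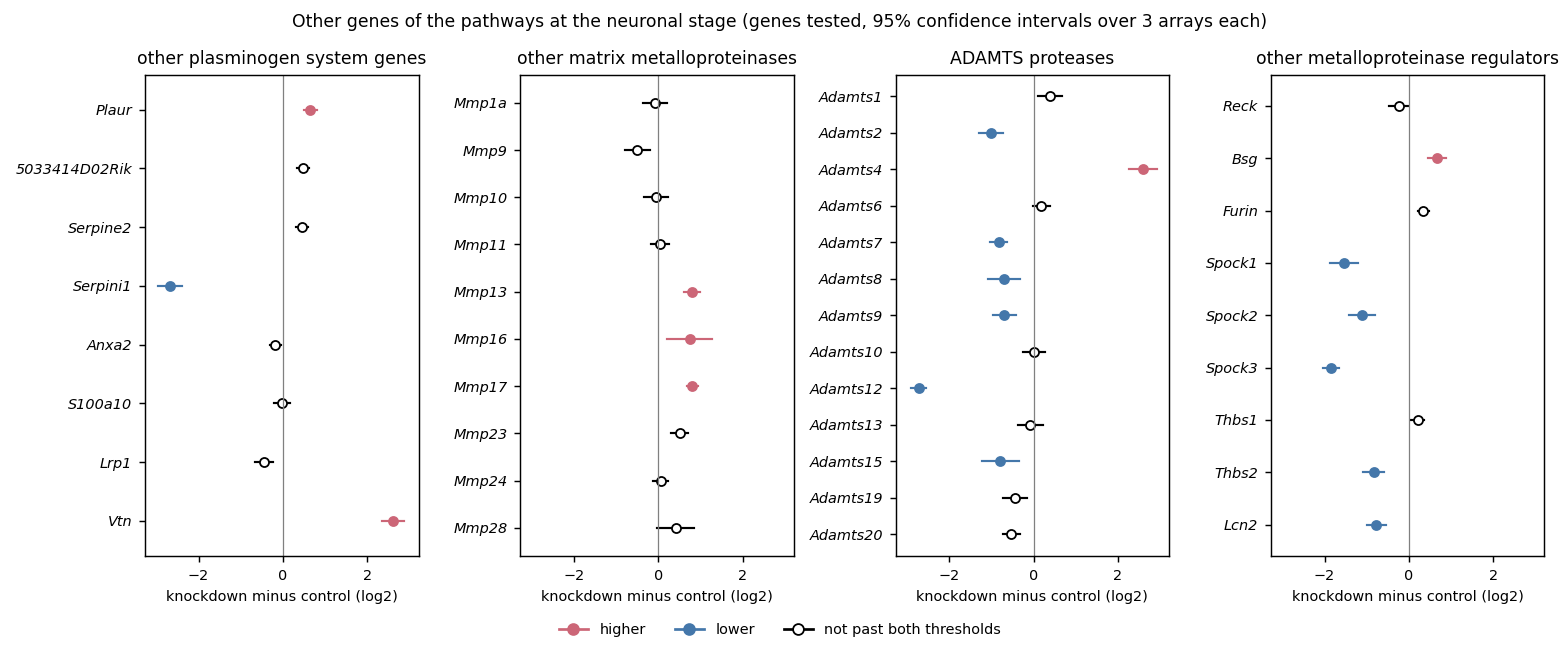
Difference between knockdown and control cells at the neuronal stage (log2, x axis) for the tested genes of 4 other lists (y axis), from limma over 3 arrays per condition, with bars for 95% confidence intervals. Filled points passed both thresholds (red higher, blue lower) and open points did not. Vtn (2.62) and Adamts4 (2.59) lie farthest to the right, and Adamts12 (-2.73) and Serpini1 (-2.69) farthest to the left.

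Across the 18 arrays, which come from only 6 RNA pools and so mostly compare conditions, the profiles of Mmp15 and Timp4 had a Pearson r of 0.984 and those of Plat and Timp3 one of 0.968. Timp1 ran opposite to them, with r = -0.970 against Timp4 and -0.952 against Plat. Among all other detected symbols that varied by at least 1 log2 unit between condition means, the profile closest to Mmp2 was that of Thbs2 (r = 0.997), followed by Sspn and Fstl1. The closest to Timp4 were A830059I20Rik (0.998), Hey1 and Spon1, and to Mmp15 Pik3r3 (0.993), Papss1 and Snx25. Plat was closest to LOC638935 (0.989), Gm114 and Ndrg2, Timp3 to B2m (0.991), Dkk3 and D630040I23Rik, and Timp2 to Rnf11 (0.986), Tgfb1i1 and Copz2. Mmp14 was closest to Serf1 (0.993), Igfbp5 and Cep170, Mmp3 to Cbln2 (0.985), Defcr-rs10 and Defcr-rs7, and Timp1 to Fgf17 (0.992), Mta3 and Tcf15. Plau, near background, had its closest profile in Frmd6 (0.916), followed by LOC385644 and Inpp4b.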

How the data were processed

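The authors deposited, for each probe and array, the average bead signal intensity without background subtraction or normalization, and a detection p-value, the share of negative controls brighter than the probe. RNA of replicate cultures was pooled per condition, and each pool was run on 3 arrays. A second deposited table was used for probe annotation only, and its 72 columns of per-sample values, which no label pairs with samples, were not used. Groups and array numbers came from the sample titles.

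Signals were corrected with neqc of limma 3.58.1 (R 4.3.3), with background estimated from the detection p-values, an offset of 16, quantile normalization and log2. One limma model over 6 conditions gave 9 comparisons. Testing required detection (p-value under 0.05) on every array of at least 1 compared condition. Calls needed a Benjamini-Hochberg adjusted p under 0.05 over all tested probes and a change of at least 1.5-fold. All tests were two-sided. A fold against a condition with no array detected is a bound from the lowest detected signal per array, or the probe's own if higher. An exact permutation of 3 against 3 arrays could not go below 0.1 and was not used.

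The procedure was checked on simulated arrays with independent errors. That check covers neither errors shared between arrays nor differences between cultures. Symbols are those of the array, and only chromosomes could be tied to its probes. The genes, gene lists and tests were chosen with earlier results of these data known. Named genes are the 10 genes, Hprt1, the 2 largest rises and falls per list and cell type comparison, the 3 closest profiles per gene, and markers. Mmp16, S100a10 and other genes named outside this rule were chosen after their values were seen. Deviations from the condition means were correlated between arrays of equal number. At the SNM stage r between the cell types was 0.49, 0.11 and 0.49. Between the SNM and neuronal stages r was 0.52, 0.14 and 0.51 in knockdown and 0.60, -0.12 and 0.34 in control cells. Arrays of unequal number were not compared, so whether the numbers pair arrays was not tested. Between the cell types at the neuronal stage r was 0.61, 0.09 and 0.32, and at the ES stage -0.09, 0.03 and 0.10. Alternatives were other normalizations, filters and thresholds, the array number as a block, the methods' t-test, the mean over probes, and leaving out arrays.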

Additional observations from a re-analysis of the deposited data

Results flagged for a closer look

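The difference between knockdown and control cells itself differed between stages for the genes named below, by limma's test of that change at an adjusted p under 0.05 and at least 1.5-fold. Moving from the ES to the SNM stage, it rose by 2.59 (log2) for Plat, 2.05 for Timp2, 1.71 for Timp3, 1.24 for Timp4 and 0.67 for Mmp14, and it changed by -2.15 for Mmp3 and -0.70 for Timp1. Of all tested probes, 11.7% were higher and 9.61% lower in this step. Timp4 was detected on 0 and Mmp3 on 1 of the 6 ES arrays, so that their effect in ES-stage cells was not measured and their values here are no measure of its change. Moving from the SNM to the neuronal stage, it rose by 3.56 for Mmp3, 1.23 for Mmp15 and 0.84 for Timp4, and it changed by -1.45 for Timp2, -0.76 for Mmp14 and -0.73 for Mmp2, with 13.7% of all tested probes higher and 14.8% lower. Timp3 was not called in the latter step by its brightest probe (0.31), but was by the mean over its probes (0.61). The Mmp14 changes had limma adjusted p of 0.043681 and 0.020766. The first was lost when any 1 of the 3 array numbers was left out (adjusted p 0.105432 without array 2 and 0.176758 without array 3, and under 1.5-fold without array 1), and the second without array 2 (0.089955) or array 3 (0.140011). Both were also lost with 75th percentile scaling and with no scaling between arrays. The mean over probes lost both too, but it takes in an undetected probe and so shrinks changes by construction. Each stage and cell type is 1 RNA pool, so a change between stages cannot be told apart from a difference between pools. Both steps use the SNM stage, where the Hprt1 difference was smallest (-1.76, against -4.09 at the ES and -4.45 at the neuronal stage). The part of Hprt1 in these changes was not tested.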

How the results depend on the processing

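With all 10 genes followed through each of 9 comparisons, the alternatives gave 1310 recomputed differences. Of these, 1237 kept their side of the thresholds, 57 were no longer called, 16 became called, and 0 of the called ones reversed. The direction of differences called under neither processing was not compared. For the comparison of cell types at the ES stage, 2 genes were called, against 1 with quantile normalization without background correction, 1 with scaling to the 75th percentile, 1 with no scaling between arrays, 1 with an offset of 50 and 1 with the mean over a gene's probes. Plat was the gene lost each time. A minimum of 2-fold left 0 and no minimum gave 4. The 2-fold minimum also lowered the genes called from 9 to 5 for SNM against ES in control cells, from 7 to 4 for neuronal against SNM in control cells, and from 6 to 3 for the change of the knockdown effect from the SNM to the neuronal stage. Without a minimum fold, neuronal against SNM in knockdown cells went from 4 to 8. The counts of the other comparisons stayed within 1.5 times. The replicate block by array number left 2, 6 and 7 genes called at the ES, SNM and neuronal stages and changed no call of any gene in any comparison. Leaving out array 1, 2 or 3 of every condition gave 2, 6 and 6 to 7 at these stages. For Timp3 at the SNM stage, the mean over 3 probes was 0.55, under 1.5-fold. The cause of these shifts was not tested, except that a minimum fold or an offset acts on small or dim changes by construction. For Plat and Mmp14 the mean over probes also shrinks changes by construction, since their other probes lay at background. The slide as a block was not run, since slides are named only in columns that no label pairs with samples, and the methods' t-test was not run on the change of the knockdown effect. Plau, and Mmp3, Mmp15 and Timp4 in ES-stage cells, lay near or under background, which limits their differences.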
